A study of Mus musculus with 7 samples.

Results

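The U5 small nuclear RNA (snRNA) copies were the 10 transcripts whose symbol is U5 among the 26827 transcripts listed in the CIRS-seq count tables, and all of them are described here. CIRS-seq reads RNA structure from the positions at which reverse transcriptase (RT) stops on RNA that was chemically modified in a native, deproteinised lysate. The cells were E14 mouse embryonic stem cells (ESCs) of the strain 129/Ola, grown with LIF, and every CIRS-seq library came from lysate treated with Proteinase K. Probing used 2 reagents in 2 replicates each, dimethyl sulfate (DMS), as a pool of the 50, 100, 150 and 200 mM treatments, and the carbodiimide CMCT, as a pool of the 10, 20, 25 and 50 mM treatments. The not treated (NT) control, also in 2 replicates, pooled the untreated aliquots of both buffers, although DMS and CMCT probing were each done in a buffer of their own. A single RNA-seq library of the same cell line, made from RNA extracted directly with TRIzol and depleted of ribosomal RNA, completed the series.

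U5 is the snRNA of the spliceosome that contacts both exons during splicing. Its conserved stem-loop 1 carries, from base to tip, stem 1a, internal loop 1, stem 1b, internal loop 2, stem 1c and the apical loop 1, and loop 1 is the part that contacts the exons. A single strand with the binding site for the ring of Sm proteins follows. DMS modifies mainly unpaired A and C, and CMCT mainly unpaired U and G, with weaker reactions at the other bases, so that a modified base is read as an RT stop that an untreated sample lacks. Here the letter T stands for U, and positions are counted from 1 at the 5′ end of the copy with most RT stops.

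The copies are spread over 6 chromosomes, read here in the mouse genome build mm9. U5.9-201 (ENSMUST00000101817, chromosome 9, minus strand, intergenic) held the most RT stops. U5.10-201 (ENSMUST00000093721) lies close by on the same strand and has no substitution in the part that can carry counts. U5.1-201 (ENSMUST00000082496), U5.6-201 (ENSMUST00000093716) and U5.7-201 (ENSMUST00000093725) lie together on the plus strand of chromosome 4 and are intergenic. U5.3-201 (ENSMUST00000083099, chromosome 1, minus strand) lies in an exon of B930036N10Rik on the same strand, so reads of that gene cannot be told apart from its own. U5.2-201 (ENSMUST00000082947, chromosome 1, plus strand) lies within an intron of Hhat and U5.4-201 (ENSMUST00000083108, chromosome 14, plus strand) within an intron of Klhl1, both opposite to the gene. U5.5-201 (ENSMUST00000083724, chromosome 17, minus strand) and U5.8-201 (ENSMUST00000093750, chromosome 19, minus strand) are intergenic. In 9 of the copies all 23 base pairs of stem-loop 1 could form. In U5.8-201, which is 117 nt long where the others are 116 nt, 21 of 23 could, the exceptions being positions 15 with 62 and 30 with 52. Identity with U5.9-201 was 80.2% in U5.5-201, against 86.3% to 97.4% in the other copies.

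These facts set what the counts can say. The tables carry no RT stop in the last 25 nt of a transcript, which leaves 91 measured positions of U5.9-201, and no stop was counted there after position 72. Copies share reads. U5.10-201 was within 1 stop of U5.9-201 in all 6 libraries at 71 of the 71 positions with a stop, U5.6-201 at 41, U5.7-201 at 23, U5.1-201 at 21 and U5.3-201 at 18. The 10 copies are therefore not 10 measurements, and the text below rests on U5.9-201 with the copies that have their own sequence set beside it. The 25 bases after each position were looked up in mm9. None of the RT stops of U5.9-201 lay where these bases have a single match, whereas 64.5% did in U5.2-201, 62.0% in U5.8-201, 84.2% in U5.5-201 and 100% in U5.4-201.

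Replicate counts were closer than counting noise allows in part of the table. In U5.4-201 and U5.5-201, both replicates differed by at most 1 stop at every position in NT, DMS and CMCT, and in U5.8-201 by at most 3. The 2 CMCT libraries held 338201940 and 181944556 RT stops in all, so equal counts did not follow their depth. The share of positions that counting noise alone would bring within 1 stop was not computed, so the shares that follow are a description. Of the positions with at least 50 stops over a pair of replicates, over all transcripts, 20.0% differed by at most 1 stop in NT, 22.5% in DMS and 20.7% in CMCT. In U5.9-201 this held for 5 of 30 such positions in NT, 5 of 34 in DMS and 8 of 35 in CMCT, while its other positions differed by up to 475, 945 and 1107 stops. U5.4-201, U5.5-201 and U5.8-201 are therefore counted as 1 sample per treatment, and although their positions were part of the fit, no position test is reported for them. Elsewhere, a position is said to have near-equal replicates where they differed by at most 1 stop in both groups compared, whatever its depth. The p-values measure only the spread between these libraries. With CMCT, the largest difference was 1107 stops in U5.9-201, U5.6-201, U5.1-201, U5.3-201 and U5.7-201 alike. Internal loop 2 held 36990 and 35730 CMCT stops in U5.9-201, and 35202 and 33943 in U5.7-201. Counts may thus be partly equal at differing positions too, and standard errors of U5.9-201 too small, which was not tested.

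U5 was read in every library, at levels that differed by treatment less than between its copies. U5.9-201 had 18429 and 16654 RT stops in NT, 16809 and 19759 with DMS, and 47974 and 44816 with CMCT. Scaled to the library total (RPM, RT stops for every 1000000 of the library) these were 75.1 and 75.1 in NT, 73.3 and 96.0 with DMS, and 142 and 246 with CMCT. Both CMCT values thus lay above all NT and DMS values, which overlapped. U5.2-201 had 12947 and 12014 RT stops in NT, 9597 and 10788 with DMS, and 26701 and 25429 with CMCT. U5.4-201 had 2094 in both NT replicates, 4138 and 4139 with DMS and 12059 in both CMCT replicates. It stood lower than U5.9-201 in every library. U5.5-201 had 1160, 2440 to 2442 and 6592 RT stops in NT, DMS and CMCT, and U5.8-201, the lowest, had 347 to 351, 405 to 406 and 928.

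**Figure D1:**
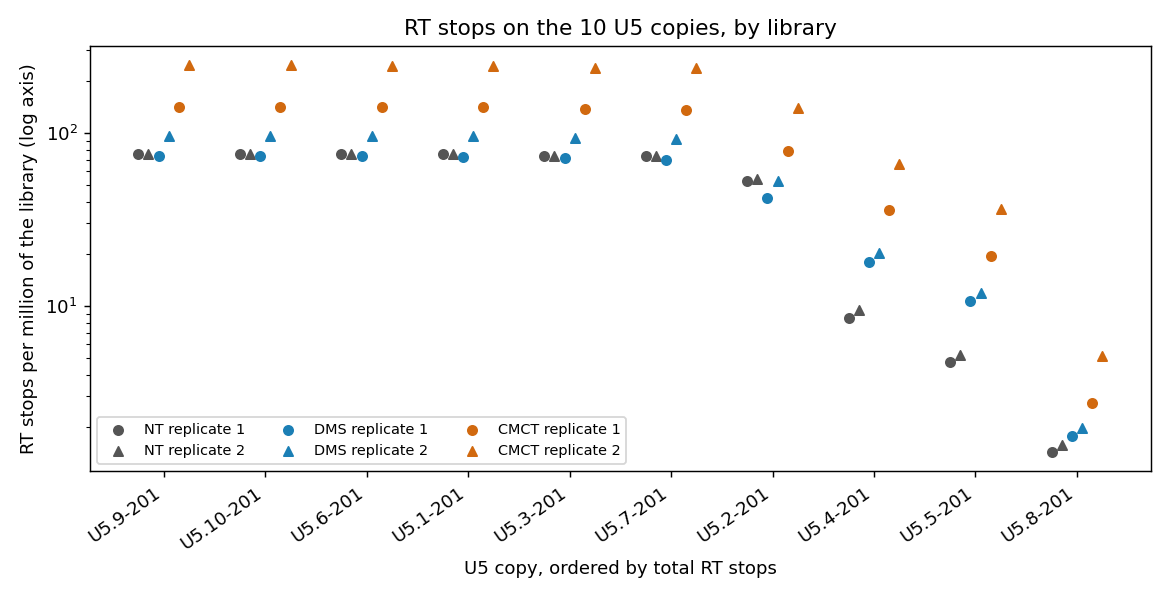
RPM, that is RT stops scaled to the library total (log axis), for each U5 copy, with 1 point per library (circles replicate 1, triangles replicate 2; grey NT, blue DMS, orange CMCT). The copies that share reads with U5.9-201 sit together on the left, and U5.8-201 is the lowest.

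Scaled and tested across all genes (edgeR quasi-likelihood test, 13216 genes, Benjamini-Hochberg adjustment, threshold 0.05), no U5 copy differed between DMS and NT, where 13.8% of all genes were called higher and 12.5% lower. The log2 fold change of U5.9-201 was -0.40 with a standard error of 0.36 (edgeR adjusted p = 0.434). Of the 10 copies, 1 had an unadjusted p under 0.05, U5.2-201 (-0.76), which DESeq2 called lower. Counted only at positions found once in the genome, which hold 64.5% of its stops, U5.2-201 turned to 0.64, not past the threshold (edgeR adjusted p = 0.204). With CMCT, 3 of 10 copies were called higher and 0 lower, against 15% and 13.9% of all genes. They were U5.4-201 (log2 fold change 2.06), U5.5-201 (2.04) and U5.8-201 (0.94), which are the copies whose replicates are near equal, so that these calls rest on 1 sample per treatment. At positions found once in the genome U5.8-201 was not called (0.86, edgeR adjusted p = 0.156), and U5.2-201 was (1.64, edgeR adjusted p = 0.0403). U5.9-201 had a log2 fold change of 0.93 with a standard error of 0.36 (edgeR adjusted p = 0.0737). With DESeq2 the count with CMCT was 9, where 2554 of the 13216 genes were called higher, against 1984 with edgeR. The median log2 fold change of all genes tested was 0.11 with CMCT and 0.01 with DMS, against 0.92 and -0.40 over the U5 copies.

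The RNA-seq library gave the copies nearly the same order, with a wider gap between the highest and the lowest. Of 31857551 alignments, U5.10-201 had 1364, U5.9-201 1361, U5.6-201 1212, U5.1-201 1080, U5.3-201 937 and U5.7-201 879. U5.2-201 had 54, U5.5-201 had 3, and U5.4-201 and U5.8-201 had 0, which allows up to 3 alignments. The copies without RNA-seq alignments thus had RT stops in all 6 CIRS-seq libraries. Of the 2136 distinct reads on a U5 copy, 1431 were placed on 2 or more copies and 705 at 1 place only. U5.6-201 had 232 and U5.1-201 221 of these reads at 1 place, U5.7-201 98, U5.3-201 78, U5.2-201 54, U5.10-201 11 and U5.9-201 8. The library is a single sample, depleted of ribosomal RNA and made with another protocol than the CIRS-seq libraries. Alignments of Prpf8 were spread over both strands (4797 on its own and 4591 on the other), while those of U5 were mostly on its own strand, with 987 and 374 in U5.9-201, 871 and 209 in U5.1-201 and 864 and 73 in U5.3-201.

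RT stops fell mainly on 2 parts of the molecule. At the 5′ end, a stop cannot be told apart from cDNA that was copied to the end of the RNA. In U5.9-201, the 5′ end (positions 1 and 2) held 41.3% and 45.7% of RT stops in NT, and 6.46% and 9.09% with DMS and 15.4% and 13.5% with CMCT. Internal loop 2 (positions 20 to 27) held 41.1% and 40.1% in NT, 81.4% and 76.7% with DMS, and 77.1% and 79.7% with CMCT. All 4 treated libraries stood above both NT libraries in internal loop 2 and below them at the 5′ end. The shares of a library sum to the whole, so that a fall at the 5′ end raises the shares of other positions.

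**Figure D2:**
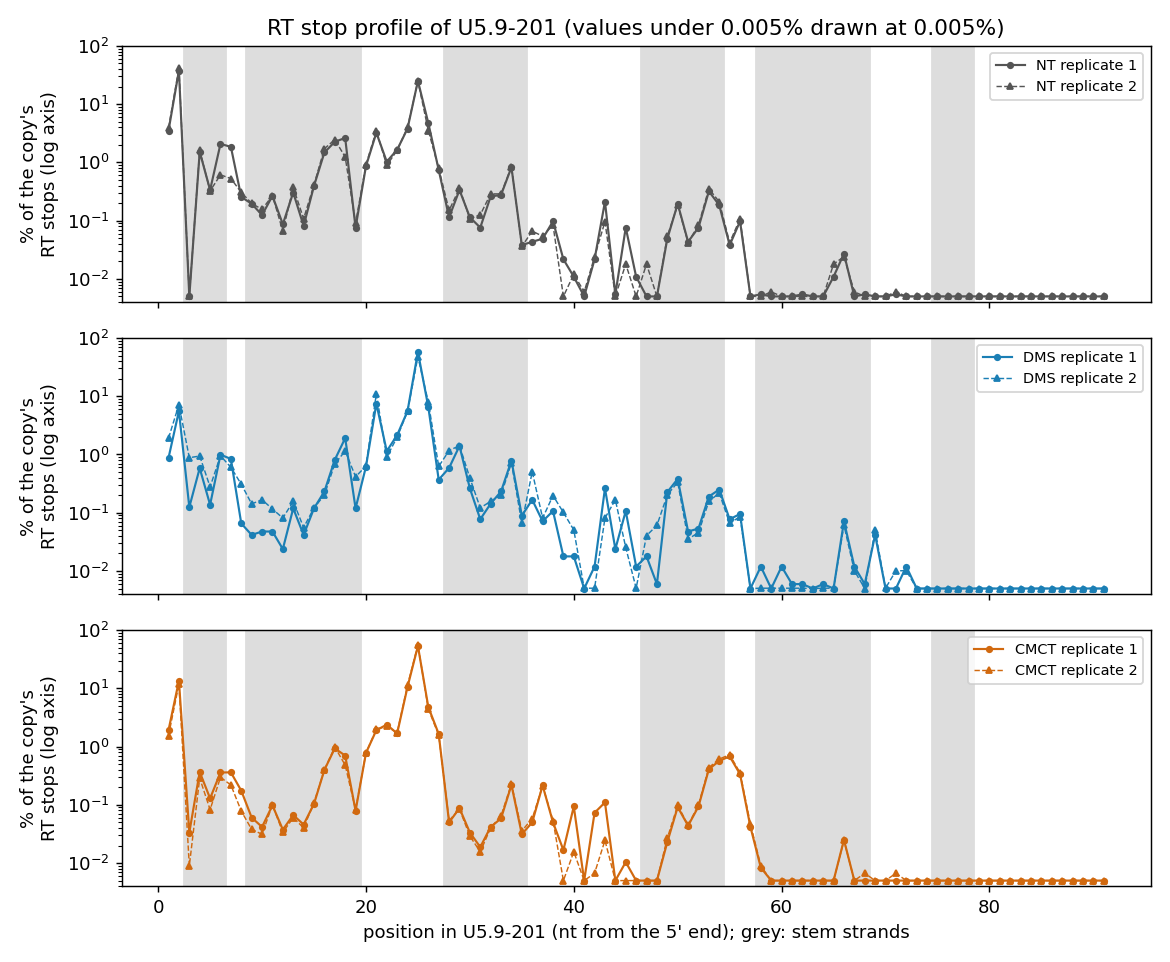
Share of the RT stops of U5.9-201 at each position (log axis, percent), with solid lines for replicate 1 and dashed lines for replicate 2, NT above, DMS in the middle and CMCT below. Grey bands are the strands of the stems. Positions 2 and 25 are the highest in NT, and position 25 is the highest with either reagent.

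Positions with most NT stops were 2, 25, 26, 24 and 1. Position 2, a T with equal counts in its NT replicates, had 6959 stops in each, 939 and 1418 with DMS and 6461 and 5354 with CMCT. Its share fell by 2.64 on the log2 scale with DMS (SE 0.18, edgeR adjusted p = 0.00766) and by 1.65 with CMCT (SE 0.17, edgeR adjusted p = 0.0158). Position 25, a T in internal loop 2, had 4618 and 4143 stops in NT, 9663 and 9494 with DMS and 25581 and 24992 with CMCT. It was the highest position with either reagent, with 57.5% and 48.0% of the stops with DMS and 53.3% and 55.8% with CMCT. In NT it already held 25.1% and 24.9%. Its share rose with DMS (log2 fold change 1.08, SE 0.12, edgeR adjusted p = 0.0117), for which U is not a preferred base, and with CMCT (1.13, SE 0.12, edgeR adjusted p = 0.0172), for which it is. Position 26, an A, had 872 and 588 stops in NT, 1101 and 1563 with DMS and 2294 and 1970 with CMCT, and position 1, also an A, had 650 and 649, 147 and 378, and 921 and 693. Neither passed the test with either reagent.

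Across the 49 tested positions of U5.9-201 (at least 50 stops over the 6 libraries, tested as a share of the copy's own stops across 698512 positions of all transcripts), 8 rose and 7 fell with DMS. These are 16.3% and 14.3% of the tested positions, against 13.2% and 8.36% of all positions, so that DMS rises were about as frequent in U5.9-201 as elsewhere. U5.2-201 had more of them, 15 rises and 8 falls at 39 tested positions (38.5% and 20.5%), or 11 and 7 of 30 without positions of near-equal replicates. They included positions 28, 29 and 30, with log2 fold changes of 4.33, 3.34 and 2.22, as in U5.9-201. The 25 bases after these positions are the same in both copies. Reads there may be shared, so U5.2-201 is not separate support for these rises. With CMCT 7 rose and 12 fell, or 14.3% and 24.5%, against 4.74% and 4.3% of all positions. Of these calls, 2 rises with CMCT and 1 fall with DMS were at positions with near-equal replicates in both groups compared. In at least 1 of the groups, replicates were near equal at 1 of the rises and 5 of the falls with DMS and at 4 of the rises and 4 of the falls with CMCT. Leaving out 1 library often ended the calls. Without replicate 1 or 2 of NT, and with DMS also without its replicate 2, 0 positions of U5.9-201 were called in either direction, although 7 to 12 positions had a higher share at an unadjusted edgeR p under 0.05. Calls fell over all positions as well in these fits, to 0 in either direction with DMS and, without 1 library of NT, to 227 to 229 rises and 4087 to 4199 falls with CMCT. Without replicate 1 of DMS, rises and falls were still called with DMS, and most of these rises were among those called with all libraries. This fit leaves 1 DMS library, and over all positions fewer were called than with all libraries. Without replicate 1 of CMCT 2 rises and 0 falls were called with CMCT, and without replicate 2 of CMCT 1 and 0, where over all positions 7397 and 8964, and 830 and 4249, were called, against 33133 and 30031 with all libraries. Scaled by the whole library in place of the copy's own stops, the log2 fold changes shifted by a median of -0.47 with DMS and 1.10 with CMCT, and every called position kept its direction. On that scale 4 rises and 8 falls of 49 were called with DMS, where 16.1% of all positions rose and 13% fell, and 8 and 1 with CMCT, where 10.1% rose and 4.38% fell. Only 3 of the 8 rises with DMS stayed called there, while all 7 rises with CMCT did. The frequent falls with CMCT thus held on the scale of the copy's own stops and not on that of the library.

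With DMS, the rises were mainly at A. The largest was at position 28, an A at the base of stem 1c, with 21 and 25 stops in NT, 99 and 232 with DMS and 24 and 24 with CMCT (log2 fold change 2.74, SE 0.42, edgeR adjusted p = 0.0192). The next 2 bases of the stem are A as well. Position 29 had 62 and 60 stops in NT, and 236 and 281 with DMS (2.02, SE 0.16, edgeR adjusted p = 0.00842). Position 30 had 21 and 18 in NT, and 44 and 78 with DMS (1.56, SE 0.29, edgeR adjusted p = 0.0274). On the opposite strand of the stem, the A at position 49 had 9 and 9 stops in NT, and 38 and 40 with DMS (2.05, SE 0.24, edgeR adjusted p = 0.0119). In internal loop 2, the A at position 21 had 596 and 585 in NT, and 1258 and 2203 with DMS (1.47, SE 0.23, edgeR adjusted p = 0.0192). The 3 remaining rises were outside the bases that DMS prefers, the T at position 25 and the G at positions 24 (0.51, edgeR adjusted p = 0.0349) and 50 (0.90, edgeR adjusted p = 0.0374). Of the 11 tested A, 5 rose and 0 fell, and their median log2 fold change was 1.56. The 11 tested C had 0 rises and 3 falls, with a median of -0.34. The 5 C outside stems had a median of 0.75 and 0 falls. The 6 C in stems had a median of -0.96 and all 3 falls. The 21 T had 1 rise and 4 falls, and the 6 G had 2 rises. By structure, 4 of the 8 A in stems and 1 of the 3 A outside them rose. These 3 are positions 1, 21 and 26, and position 1 is at the 5′ end, where copied ends cannot be told apart. Other unpaired A, such as positions 44 and 69, were under the minimum. Position 28 is the end of stem 1c next to internal loop 2. The counts are too few to compare A in stems with A outside them.

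With CMCT, most rises lay in internal loop 2, on the strand opposite it or next to that strand, and 1 lay in loop 1. Position 24, a G, had 702 and 663 stops in NT, 937 and 1084 with DMS, and 5086 and 5048 with CMCT (log2 fold change 1.49, SE 0.11, edgeR adjusted p = 0.00574). Position 22, a T, had 189 and 148 in NT, 192 and 179 with DMS, and 1140 and 1001 with CMCT (1.27, SE 0.18, edgeR adjusted p = 0.0302). In loop 1, the G at position 37 had 9 and 9 stops in NT, 12 and 16 with DMS, and 103 and 95 with CMCT (2.04, SE 0.21, edgeR adjusted p = 0.015). CMCT did not overlap NT or DMS at these 3 positions, as counts or as shares. On the opposite strand of internal loop 2, position 55 had 7 and 7 stops in NT and 326 and 326 with CMCT (4.12), and position 54, the last T of stem 1c, had 34 and 35 and then 273 and 274 (1.58), both with near-equal replicates. Position 56, with equal NT counts, had 18 and 18 in NT, and 161 and 159 with CMCT (1.74, SE 0.19, edgeR adjusted p = 0.0177). Positions 55 and 56 are C, which is not among the bases that CMCT prefers.

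The falls with CMCT lay in the stems and at the 5′ end. Of the 30 tested positions in stems, 1 rose and 11 fell, with a median log2 fold change of -1.53. Of the 19 outside stems, 6 rose and 1 fell, with a median of 0.07. Stem 1c held 6 of these falls, at positions 29 to 34, from -2.73 at position 32 to -1.82 at position 30. Scaled by the whole library, position 32 alone of these stayed past the threshold. With DMS, 5 rose and 6 fell in stems (median -0.38), and 3 rose and 1 fell outside them (median 0.34). Position 3, an A with 0 stops in both NT libraries, had 21 and 174 with DMS and 16 and 4 with CMCT, and was not called with either reagent.

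**Figure D3:**
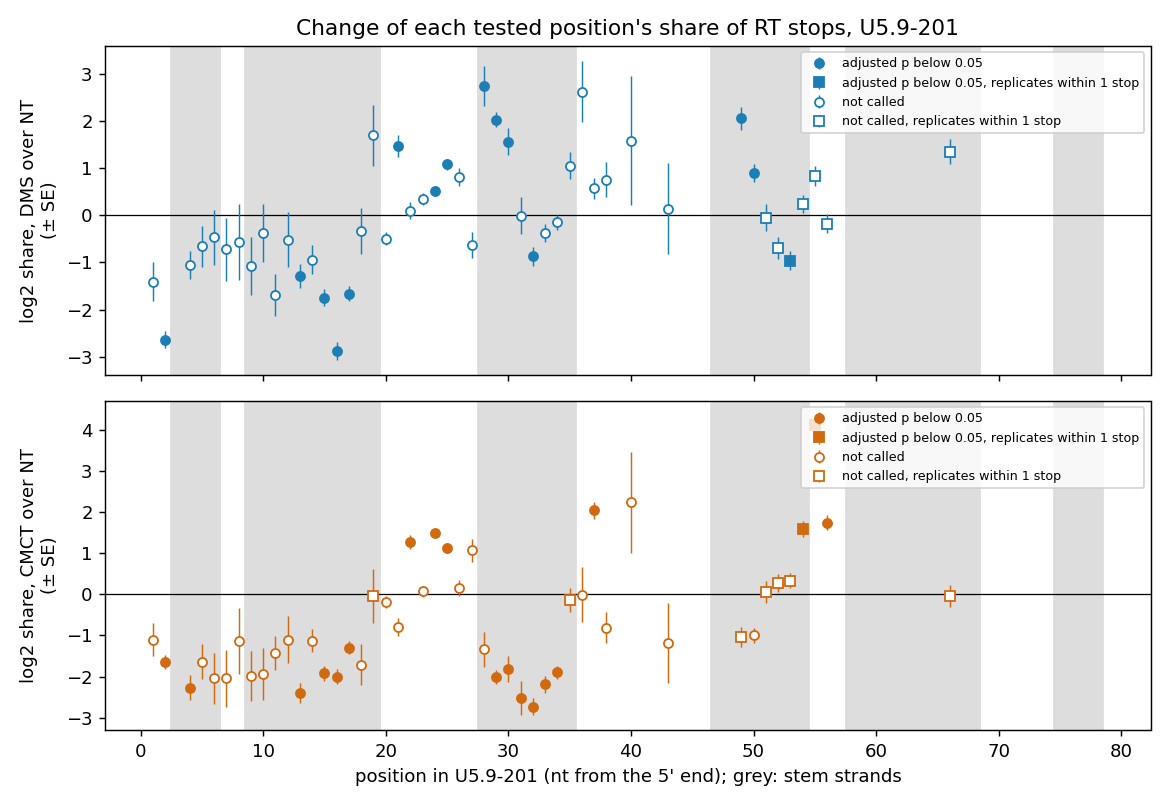
Log2 fold change of the share of RT stops, treated over NT, with its standard error, at each tested position of U5.9-201 (DMS above, CMCT below). Filled symbols passed the test, squares are positions with near-equal replicates in both groups compared, grey bands are stem strands, and position 3 is left out because both NT libraries had 0 stops. CMCT values in stem 1c lie below 0 at positions 28 to 35.

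Loop 1, the loop that contacts exons, held few stops in any library, as did the elements after it. In NT, the stem 1c strand after loop 1 held 0.868% and 0.949%, and the strand opposite internal loop 2 held 0.136% and 0.150%. The 11 positions of loop 1 in U5.9-201 had 0.548% and 0.360% of the stops in NT, 0.797% and 1.22% with DMS, and 0.625% and 0.373% with CMCT. Of these, 5 reached the minimum for the test. Only position 37 passed it, with CMCT. The C at position 36 had 8 and 11 stops in NT and 28 and 100 with DMS (log2 fold change 2.62, edgeR adjusted p = 0.0544). The other 3 tested positions of the loop, at 38, 40 and 43, had log2 fold changes of 0.14 to 1.58 with DMS and -1.18 to 2.23 with CMCT and did not pass the test. The 6 loop positions under the minimum were not tested. The strand of stem 1b before internal loop 2 held 7.90% and 7.09% in NT, 3.51% and 3.30% with DMS, and 2.56% and 2.36% with CMCT. The strand of stem 1c before loop 1 held 2.04% and 2.20% in NT, 3.58% and 4.26% with DMS, and 0.540% and 0.553% with CMCT. The reagents thus moved it to opposite sides of NT.

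**Figure D4:**
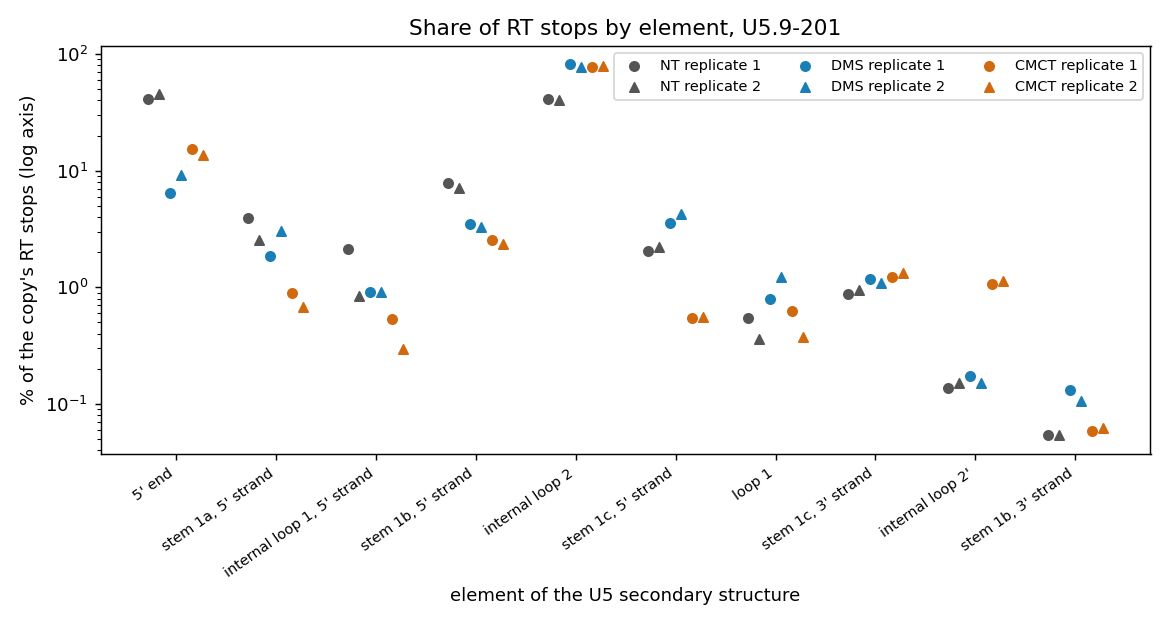
Share of the RT stops of U5.9-201 in each element (log axis, percent) with at least 50 stops in all, with 1 point per library (circles replicate 1, triangles replicate 2). Internal loop 2 lies between 40.1% and 81.4%, and loop 1 between 0.360% and 1.22%.

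As a reactivity, that is the log2 ratio of treated over NT shares with negative values set to 0, limited at its 90th percentile and scaled to 1, the elements differed between the reagents. With CMCT, the mean over deep unpaired positions of U5.9-201 was 0.420 and 0.393 in replicates 1 and 2, and over deep paired positions 0.0827 and 0.0847. With DMS these were 0.249 and 0.304 against 0.244 and 0.268. CMCT reactivity was therefore higher outside stems than within them in both replicates. With DMS the difference on this scale, 0.00454 and 0.0357, was of the size of its own spread. It was 0.0514 and 0.0408 with a pseudocount of 5, and 0.113 and 0.136 as the plain log2 ratio. The reactivity means count positions 1 and 2 at 0, and position 3, which had 0 NT stops, at 1. By reactivity, the copies varied in this difference, with DMS values of 0.0715 and 0.104 in U5.2-201, 0.104 and 0.148 in U5.1-201 and -0.0817 and -0.0181 in U5.3-201. Internal loop 2 had a CMCT reactivity of 0.486 and 0.559 and a DMS reactivity of 0.288 and 0.316. Its opposite strand had 1 and 1 with CMCT, the limit of the scale, on 1063 stops. The strand of stem 1c before loop 1 had 0 and 0 with CMCT and 0.420 and 0.427 with DMS. Loop 1 had 0.280 and 0.0909 with CMCT and 0.279 and 0.494 with DMS, with 5 of its 11 positions deep.

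The base composition of the stops of U5.9-201 depended on position 25. With every position counted, A held 12.3% and 11.8% in NT, 17.9% and 25.9% with DMS, and 9% and 8.29% with CMCT, and G held 5.38% and 5.66%, 6.78% and 7.01%, and 12% and 12.5%. Leaving out position 25, A held 16.4% and 15.7% of the stops of U5.9-201 in NT, 42.0% and 49.8% with DMS, and 19.3% and 18.7% with CMCT. G held 7.18% and 7.54% in NT, 15.9% and 13.5% with DMS, and 25.7% and 28.3% with CMCT. T held 64.1% and 68.1%, 26.5% and 24.2%, and 45.5% and 43.4%, most of it position 2 in NT. Over all transcripts and positions, A held 13.3% and 15.2% of the stops in NT and 20.4% and 27.2% with DMS, near the shares of U5.9-201 with every position counted. G held 13.7% and 15.9% over all transcripts in NT, 11.2% and 12.6% with DMS, and 11.6% and 9.87% with CMCT, so that both CMCT values lay below NT there and above NT in U5.9-201.

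In the copies with a sequence of their own, internal loop 2 also held a larger share with both reagents than in NT. Their NT profiles differed, with 57.9% and 62.5% at the 5′ end of U5.2-201, 17.0% and 16.9% in U5.4-201 and 29.5% in U5.5-201. How reads with several places were treated is not given, so these copies are not independent measurements. Internal loop 2 held 32.0% and 27.7% of the stops of U5.2-201 in NT, 80.7% and 79.5% with DMS, and 72.0% and 71.4% with CMCT. In U5.4-201 it held 67.3% in NT, 86.9% with DMS and 85.7% with CMCT in either replicate. In U5.5-201 it held 57.1% in NT, 81.1% with DMS and 80.6% with CMCT in replicate 1, with near-equal values in replicate 2. U5.8-201 stood apart, with 3.42% and 3.17%, 17.0% and 17.0%, and 15.3% and 15.3%. Its position 25 had 0 and 0 stops in NT, 2 and 1 with DMS, and 1 and 1 with CMCT, and its 5′ end held 49.3% and 49.6% of the stops in NT.

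**Figure D5:**
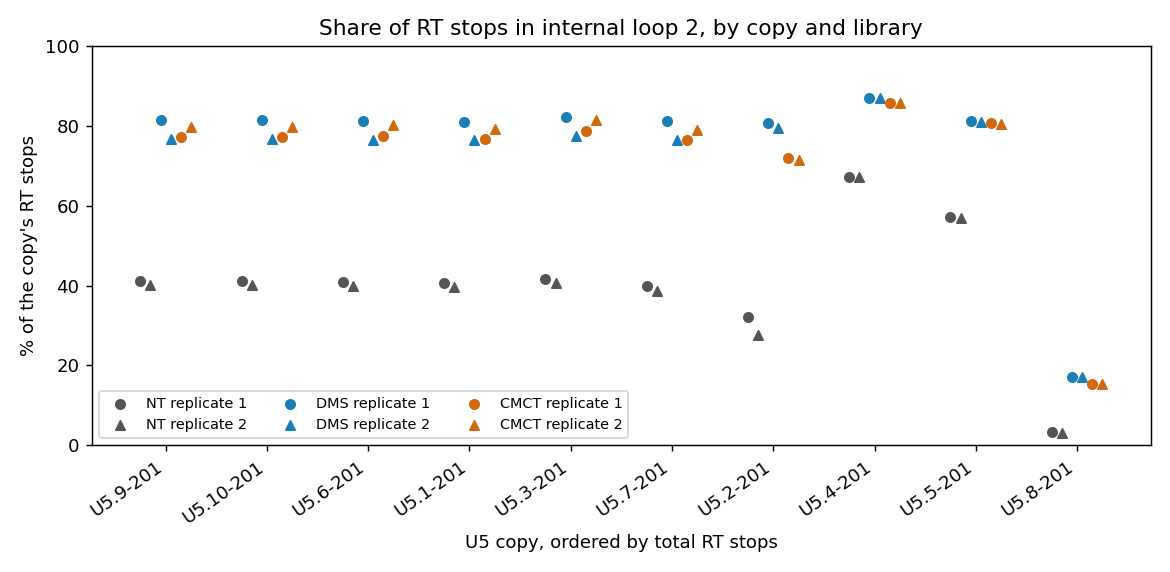
Share of each copy's RT stops in internal loop 2 (percent), with 1 point per library (circles replicate 1, triangles replicate 2; grey NT, blue DMS, orange CMCT). In every copy both DMS and both CMCT points lie above both NT points, and U5.8-201 stays at 17.0% or below.

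By position, the counts of these copies were correlated with those of U5.9-201 over 71 positions in 6 libraries on a log2 scale. Pearson r was 0.948 for U5.2-201, 0.889 for U5.4-201, 0.825 for U5.5-201 and 0.292 for U5.8-201. Copies share reads and libraries, and these values are a description.

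The other snRNAs and the proteins of the U5 particle give the setting. Of 893 tested genes of the other spliceosomal snRNAs, many of them listed under the same symbol, 336 were higher and 129 lower with DMS, and 639 and 14 with CMCT, with median log2 fold changes of 0.48 and 1.74. Over all genes the shares were 13.8% higher and 12.5% lower with DMS, and 15% and 13.9% with CMCT. U6 alone was listed with 665 copies, and copies may share reads, so the counts and medians mostly describe U6. As RPM of the copy with most RT stops, U6, U12 and U4atac lay above NT in both CMCT replicates. By the same measure, U1 and U6atac lay below NT, and U2, U4 and U11 overlapped it. Of the 8 U5 particle proteins, 1 was lower with both reagents and 7 were not called. This was Ddx23, a helicase of the particle, with 800 and 964 CPM (counts scaled to library size) in NT, 154 and 164 with DMS and 171 and 203 with CMCT, and log2 fold changes of -2.47 with DMS (edgeR adjusted p = 0.00125) and -2.24 with CMCT (edgeR adjusted p = 0.00179). Prpf8, the scaffold at the centre of the spliceosome, had -0.30 and 0.48 and was not called. Of the 8 Sm proteins, 2 were higher with DMS (Snrpf, 1.28, and Snrpn, 1.35) and 1 lower (Snrpb, -0.76), and 0 were called with CMCT (4 had an unadjusted edgeR p under 0.05). Of the 9 tested of 14 assembly factors, 1 was called, Smn1, with 0.73 and an edgeR adjusted p of 0.0444 with CMCT. The 3 genes whose log2 CPM ran most like those of U5.9-201 over the 6 libraries were a U1 copy (ENSMUSG00000087923, r = 0.991), a U4 copy (ENSMUSG00000084583, 0.991) and Gm7199 (0.991), among 11699 genes. Their levels were low, with 0.777 to 2.9 CPM in the U1 copy, 1.11 to 5.05 in the U4 copy and 0.941 to 3.72 in Gm7199. The U1 and U4 copies had 0 RNA-seq alignments. Whether their replicate counts are near equal, as in U5.4-201, was not tested, and these values are a description.

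Markers of the ES cell state, which cannot identify the line, were read in the RNA-seq library. Pou5f1 had 169 RPM (alignments scaled to the library total), Nanog 125, Sox2 93.3 and Zfp42 256. Of the 9 ES cell markers read, Utf1 was the lowest with 4.58, below Gata6 (9.73) and Gata4 (5.93), which mark primitive endoderm, and Pax6 (6.59) and Nes (5.15), which mark neural cells. The other lineage markers read lay below it, at 2.26 in Sox17, 1.32 in Sox7, 1.70 in Neurod1 and 0.0942 to 0.220 in the mesoderm markers T, Mixl1 and Mesp1. Col1a1, Col1a2, Col3a1 and Thy1, which mark fibroblast feeders, had 0.0942 to 0.408.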

How the data were processed

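CIRS-seq RT stops were measured in 6 libraries and RNA-seq in 1. Per the labels, the authors' reads were mapped to mm9 (FastQC 0.10.1, Bowtie 1.0.0 and bedtools 2.17.0 for CIRS-seq, TopHat2 2.0.6 for RNA-seq). The paper names a variant of mm9 with single-nucleotide variants of E14 cells, and how reads with several places were treated is not given in the sources used here. The deposited CIRS-seq values are raw counts of RT stops per transcript position, not normalised. The RNA-seq file holds single alignments, of which those with a midpoint in an exon were counted. Tables of both replicates together were not used.

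Library totals were 181944556 to 338201940 RT stops, and intervals and limits cover counting error only. GENCODE vM1 gave coordinates for 26792 transcripts. Genes (filterByExpr, TMM scaling, each genomic position once per gene) and positions (at least 50 stops over the 6 libraries, 1 transcript per gene with every U5 copy, offset the copy's own stops) were tested with edgeR 4.0.16 in 1 fit of all 6 libraries, with Benjamini-Hochberg adjustment and a threshold of 0.05. Both steps were tested on simulated data, where recovery was lower at lower depth, so no absence of change is read from positions with few stops. With 2 libraries against 2, an exact permutation test cannot go below p = 0.333 and was not used. DESeq2 1.42.0, other scalings, filters, minimums and leaving out each library were tried. Reactivity used a pseudocount of 1. Elements follow the published U5 structure, with pairs checked against the sequence. The positions named in U5.9-201 are the up to 10 largest rises per reagent past the threshold, with a share above NT in both replicates. Also named are its 5 positions with most NT stops, and others added after their values were seen. Members and lists were chosen with earlier results of these data known. The sequences of the copies, and the comparison of counts at bases where copies differ, are not reported here.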

Additional observations from a re-analysis of the deposited data

How the results depend on the processing

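The number of U5 copies called lower with DMS went from 0 to 1 with DESeq2 and to 1 with a replicate block. Over all 13216 genes, those called lower went from 1656 to 2688 and to 3018. The number of copies called higher with CMCT went from 3 to 9 with DESeq2 and to 9 with a replicate block. Over all genes, those called higher went from 1984 to 2554 and to 2680. The 2 replicate numbers are shared by the labels without stating a pairing. Deviations of same-numbered libraries correlated over genes with r of 0.553 for NT with DMS, 0.0101 for NT with CMCT and -0.107 for both reagents. Rises in U5.9-201 went from 8 to 4 with DMS on library totals, from 7 to 4 with CMCT without positions of near-equal replicates (an alternative chosen after seeing the data), and to 0 to 8 with DMS and 0 to 4 with CMCT when 1 library was left out. With fewer libraries fewer degrees of freedom remain. Without positions of near-equal replicates, 7661 of 524678 positions of all transcripts rose with CMCT, against 33133 of 698512 with them. The difference in reactivity between unpaired and paired positions of U5.9-201 was 0.0201 with DMS, 0.0461 with a pseudocount of 5 and 0.124 as the plain log2 ratio. With CMCT it was 0.323, 0.368 and 1.45. It kept its sign with either replicate left out (0.00454 to 0.0357 with DMS, 0.309 to 0.337 with CMCT). In U5.10-201, whose counts are within 1 stop of these, the DMS difference was -0.00129 in replicate 1 and 0.0361 in replicate 2, so that its sign with DMS turns on single stops. Replicate profiles of U5.9-201 correlated with r of 0.997, 0.993 and 0.999 in NT, DMS and CMCT as counts, and 0.984, 0.964 and 0.981 on the log2 scale. Counting only positions found once in the genome turned the direction of 5 copies with DMS, to 0.39 in U5.6-201, 0.79 in U5.1-201, 0.95 in U5.3-201, 0.64 in U5.2-201 and 0.35 in U5.8-201, and of U5.3-201 with CMCT to -0.06, none of them past the threshold. These positions hold 0.239%, 0.141% and 0.032% of the stops of the first 3, and 64.5% and 62.0% of those of U5.2-201 and U5.8-201. Position 26 with CMCT went to -0.04 without replicate 2 of NT, within a range of -0.04 to 0.38 when 1 library was left out. The cause of these changes was not tested.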

Other observations

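Other spliceosomal snRNAs gave a range of levels around U5, each read as its copy with most RT stops. U1 had 741036 and 514325 stops in NT, 159521 and 175059 with DMS, and 509346 and 374383 with CMCT. U2 had 377569 and 135787, 629734 and 593058, and 466149 and 703794. U6 had 22867 and 24234 in NT, 36254 and 38380 with DMS, and 133141 and 122608 with CMCT. Of the minor spliceosome, which uses U5 as well, U12 had 2629 and 1098, 6948 and 3831, and 5430 and 2913, and U4atac had 823 and 731, 988 and 1157, and 1257 and 951. U11 had 1604 and 3615 in NT, 1270 and 14063 with DMS, and 2292 and 909 with CMCT, with its DMS replicates far apart.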
